A study of Mus musculus with 2 samples.

Results

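The genes described here encode 10 enzymes that make, desaturate and elongate fatty acids: Acly, Acaca and Fasn (synthesis), Scd1, Scd2, Fads1 and Fads2 (desaturation), and Elovl1, Elovl5 and Elovl6 (elongation). They were found as the non-control array probes whose transcript accession resolves to 1 of these symbols in RefSeq, which gave 14 of 39427 probes, and 10 of 20659 named genes. All 10 genes had a probe well above background on both arrays, as did 15022 genes in all. RAW246.1 cells, labelled as macrophages, were grown in DMEM and received either PBS, as the mock treatment, or synthetic miR-122, a liver microRNA, at a stated 5 μg/mL. No treatment time is given in the sources used here. Cy3-labelled RNA of each culture was hybridised to 1 one-colour Agilent mouse array. The title of the miR-122 sample reads as though the microRNA had been omitted, and 1 treatment text serves both samples. Directions therefore rest on the source name and description, which no gene in the data checks.

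Cells make fatty acids from citrate. ATP citrate lyase (Acly) cuts it to cytosolic acetyl-CoA, acetyl-CoA carboxylase (Acaca) turns this into malonyl-CoA, and fatty acid synthase (Fasn) joins these units into palmitate. Elongases of the Elovl family lengthen the chain, stearoyl-CoA desaturases (Scd) put in the first double bond, and the Fads desaturases act on polyunsaturated chains. Sterol regulatory element-binding protein SREBP-1 and the liver X receptors (LXR) are the best known activators of these genes, and in macrophages the products feed membrane phospholipids.

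With 1 array per group there is no replicate check, no test and no p-value for any difference below, and treatment, culture and array cannot be told apart. Signals are the background-subtracted intensities of the scanner software, each with the error that its error model assigns to the spot. A level is a log2 signal minus the 75th percentile of all probes on the array, and a difference is the level with miR-122 minus the level with PBS. The percentile itself was 421 signal units with PBS and 348 with miR-122, so an unscaled ratio of signals overstates a lower value on the miR-122 array. Where a gene had several probes, they gave differences with a pooled standard deviation of 0.30, over 3575 such genes. Of 11 macrophage markers, 10 had a named probe and all 10 were well above background on both arrays. Of the markers of cells rich in this pathway, 7 of 10 adipocyte genes were well above background on each array. Of the 10 hepatocyte genes, 8 were with PBS and 7 with miR-122. Most were dim, with median levels of -4.42 and -4.35 for adipocyte and -4.64 and -4.13 for hepatocyte genes, PBS first. The adipocyte genes Lep, Plin1 and Car3 and the hepatocyte genes Alb and Apoa1 were not well above background on either array. The log2 summed level of the 10 adipocyte markers was 3.70 with PBS and 4.82 with miR-122, nearly all of it from Fabp4, which macrophages also express, and that of the 10 hepatocyte markers was 4.27 and 4.43, nearly all of it from Apoa2. The part of these markers in the results was not tested.

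With their brightest probes, all 10 enzyme genes had a lower level on the miR-122 array, with differences from -1.76 for Scd2 to -0.12 for Acly and a median of -0.60; under the normexp background correction, Fasn was at 0.03. In such bulk RNA, fewer cells with a transcript and less of it per cell cannot be told apart. Among all 15022 genes 39.7% had a negative difference, and the median was 0.09. The members at least 2-fold lower were 2 of 10, Scd2 and Elovl6, against 1.78% of all genes, and 6 of 10 were at least 1.5-fold lower, against 5.99%. None was 2-fold higher, against 4.57% of all genes, or 1.5-fold higher, against 12.1%. The members were chosen with earlier results of these data known. The shares of all genes, here and under other scalings, are therefore no independent background for the member counts. For 9 of the 10, all but Acly, the difference exceeded the error of its own 2 spots, and also the standard deviation between probes of a gene. The share of all genes that did so is not given here, so this count has no background to be read against. Neither spread measures variation between cultures. For 7 members, among them Scd2 and Elovl6, the array held only 1 probe, so the standard deviation set against them came from other genes. The arrays' scaling matters for these counts: with each array scaled on its median, which moved the median of all genes by -0.18, 4 members were at least 2-fold lower, against 3.04% of all genes, and with quantile normalization, which moved it by -0.12, 2 were. Among all genes past 2-fold, 71.9% were higher on the miR-122 array with the 75th percentile, 50.8% with median scaling and 59.9% with quantile normalization.

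**Figure D1:**
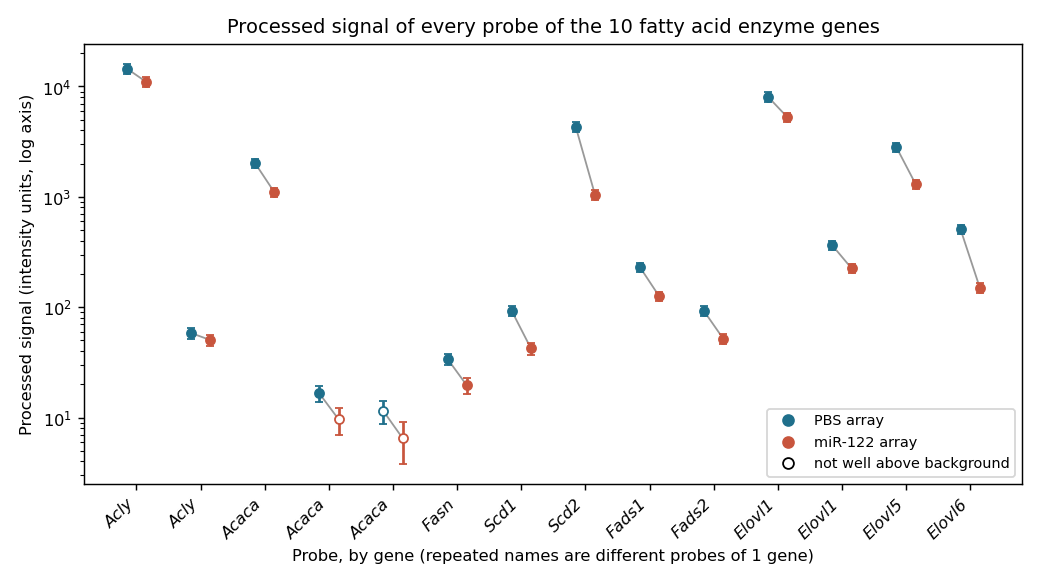
Processed signal of each of the 14 probes on both arrays (PBS in blue, miR-122 in red), on a log axis, with bars for the scanner software's error of the spot and open points for spots not well above background. Before any scaling every probe had a lower signal on the miR-122 array, and Scd2 and Elovl6 had the widest gaps. The miR-122 array was dimmer as a whole, with a 75th percentile of 348 against 421 with PBS. After scaling the dimmer Acly probe had a difference of 0.06.

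The synthesis members had a median difference of -0.52, against -0.73 for the desaturase and -0.83 for the elongase members. With its bright probe Acly gave a signal of 14529.5 ± 1453 with PBS and 11008.6 ± 1101 with miR-122, a difference of -0.12 whose error from the spots was 0.20. A dimmer probe, annotated to another Acly transcript, gave 58.3 ± 6.38 and 50.4 ± 5.86, a difference of 0.06. The Acly probes thus had opposite signs, and neither difference exceeded its error. Acaca, which encodes the rate-limiting carboxylase, gave 2014 ± 201 with PBS and 1099 ± 110 with miR-122, a difference of -0.60 with an error of 0.20, or 1.51-fold lower. Its other probes were close to background, with 16.6 against 9.65 and 11.4 against 6.49 signal units, and differences of -0.50 and -0.54 that carried errors of 0.46 and 0.69. The 3 Acaca probes had the same sign, but only 1 of them was well above background on both arrays. Fasn gave 34.0 ± 4.03 with PBS and 19.6 ± 3.13 with miR-122, a difference of -0.52 with an error of 0.29. Both Fasn signals lay near the lowest signals called well above background, which were 10.8 and 11.5, and normexp, which models signal and background together and adds an offset of 50, gave the difference of 0.03. When all genes were cut into 10 bins of mean level, the 1502 genes of the bin that held Fasn had a median difference of 0.23.

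The desaturase genes included the member with the largest difference. Scd2, the stearoyl-CoA desaturase form prominent in brain and many tissues other than liver, gave 4293 ± 429 with PBS and 1043 ± 104 with miR-122. This was a difference of -1.76 with an error of 0.20, or 3.40-fold lower, and 34 of the 15022 genes had a lower value. Its folds ranged from 3.30 with normexp to 3.84 with median scaling. Scd1, the main form of liver and fat, gave 92.7 ± 9.60 and 42.4 ± 5.17, a difference of -0.85 with an error of 0.23. Scd1 was 1.81-fold lower, but 1.24-fold with normexp and 2.04-fold with median scaling. Fads1, which inserts a double bond late in the path to arachidonic acid, gave 231 ± 23.2 with PBS and 126 ± 12.8 with miR-122, a difference of -0.60. Fads2, the desaturase of the first step of that path, gave 92.0 ± 9.47 and 51.7 ± 5.74, a difference of -0.55. With normexp their differences were -0.40 and -0.21, so the dimmer of these desaturase genes moved most with the background correction.

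Neighbouring genes of both desaturase families had unlike differences. In RefSeq the 4 Scd genes lie side by side on chromosome 19 in the order Scd3, Scd2, Scd4, Scd1, with 0 other protein-coding genes between them. The 3 probes of Scd3, a form of skin and Harderian gland, gave 138 ± 14.0 against 108 ± 11.1, 61.7 ± 6.71 against 47.7 ± 5.52 and 53.6 ± 5.87 against 48.8 ± 5.54 signal units, PBS first. Their differences of -0.07, -0.10 and 0.14 were within their errors of 0.21, 0.23 and 0.23. Scd4, a heart form, gave 21.8 ± 3.24 with PBS and 25.0 ± 3.65 with miR-122, a difference of 0.47 with an error of 0.30. Across the cluster the differences therefore ran from -1.76 in Scd2 to 0.47 in Scd4. The upper end of this range depended on the scaling, since Scd4 was dim and dim genes in general had positive differences. The bin of mean level that held Scd4, which also held Fasn, had a median difference of 0.23. Scd4 was at 0.24 with loess on the mean level, 0.23 with quantile normalization and 0.31 with normexp. Scd2 was at -1.77 with loess. Transcripts of these close relatives may share a probe, and how much the probes cross-hybridise was not tested. The Fads genes are likewise adjacent on chromosome 19, in the order Fads3, Fads2, Fads1. Fads3 gave 126 ± 12.9 with PBS and 94.1 ± 9.88 with miR-122, a difference of -0.15 that was smaller than its error of 0.21 and was 0.01 with normexp.

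The elongase members ran from -1.48 for Elovl6 to -0.34 for Elovl1. Elovl6, which lengthens palmitate to stearate, gave 507 ± 50.7 with PBS and 150.2 ± 15.3 with miR-122. This was a difference of -1.48 with an error of 0.21, or 2.79-fold lower, and 2.29-fold with normexp. Elovl5, which lengthens polyunsaturated chains, gave 2809 ± 281 and 1302 ± 130, a difference of -0.83 with an error of 0.20, or 1.78-fold lower. Elovl1, which makes very long saturated and monounsaturated chains, gave 8034 ± 803 with PBS and 5256 ± 526 with miR-122 with its bright probe, and 363 ± 36.4 and 225 ± 22.6 with the other. The differences of the Elovl1 probes, -0.34 and -0.41, both exceeded their errors of 0.20 and had the same sign. The other elongase genes gave no measurable level: the probes of Elovl2, Elovl3, Elovl4 and Elovl7 were not well above background on either array.

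**Figure D2:**
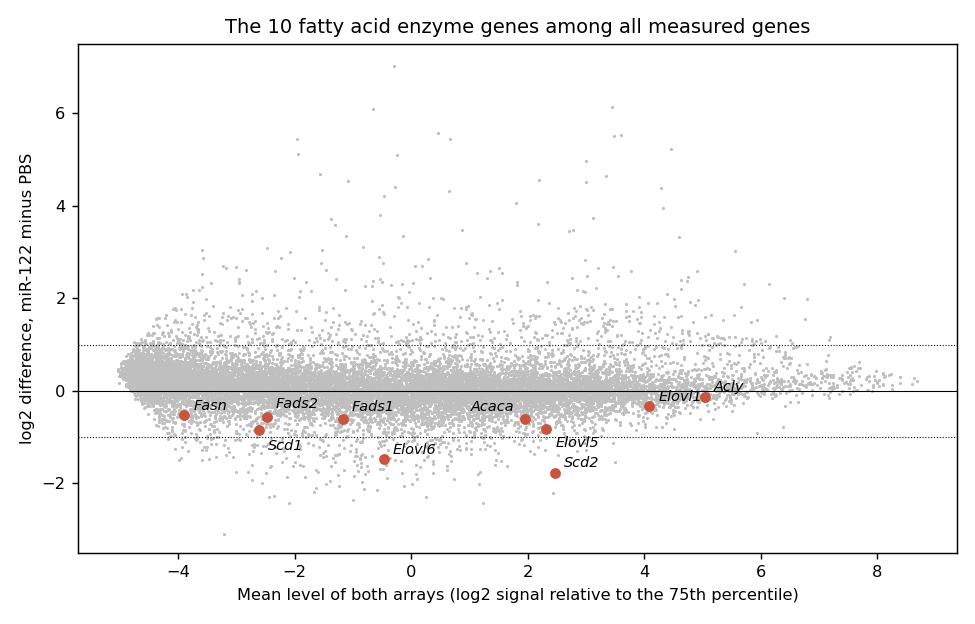
Difference, miR-122 minus PBS, against the mean level of both arrays for the 15022 genes well above background on both (grey) and the 10 enzyme genes (red, named); dotted lines mark 2-fold. All 10 lie below 0 (Fasn at 0.03 with normexp), and Scd2 and Elovl6 lie below the lower dotted line.

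The members span nearly the whole range of signal, from Fasn in the next to dimmest of the 10 bins to Acly and Elovl1 in the brightest, so the sign they share was not limited to dim or bright probes. Loess on the mean level, which removes any trend of the difference with level, left all 10 negative, against 49.7% of all genes, with a median of -0.70. The authors' own deposited log2 values for the chosen probes were lower on the miR-122 array for all 10, where the median difference of all genes was -0.03. These values nearly equal the quantile-normalized ones, so they are not a separate check. In the authors' table Scd2 had 12.00 with PBS and 10.15 with miR-122, Elovl6 had 8.87 and 7.34, and Acly had 13.79 and 13.47. Under normexp 9 of the 10 stayed negative, against 35.6% of all genes, and the median of the 10 was -0.40.

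**Figure D3:**
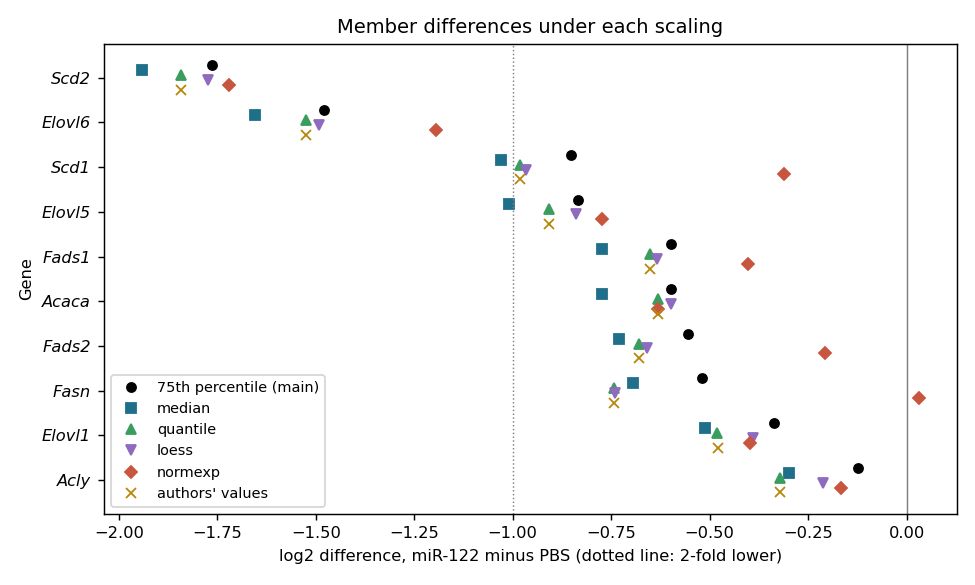
Difference of each enzyme gene, miR-122 minus PBS on the log2 scale, under the 75th percentile, median, quantile and loess scalings, the normexp correction and the authors' values; the dotted line marks 2-fold lower. Scd2 and Elovl6 stay past 2-fold under all 6, of which the authors' values nearly repeat the quantile ones, and normexp moves Scd1, Fads2 and Fasn towards 0.

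Promoter sequence was available from RefSeq (build GRCm38.p6) for 7 of the 10 members, all but Scd1, Scd2 and Fads1, in 8 entries. The 250 bases before each transcription start were searched on both strands for TCACNCCAC, a sterol regulatory element of the kind SREBP binds, for CACGTG, an E-box, and for CCAAT, the box of NF-Y, a factor that acts beside SREBP. TCACNCCAC was in 0 of the 8 entries and in 1.05% of 32851 promoters of this length. CACGTG was in 1 entry, that of Elovl5, and in 6.02% of all promoters, and CCAAT was in 3 entries, those of Fasn, Elovl5 and 1 of the pair for Elovl1, and in 33.8% of all promoters. A match is a run of letters and not a binding site. The sequences below are those of Elovl6, the member with a promoter entry that differed most, and of Elovl5 and Fasn, the entries with more than 1 match, written 5′ to 3′ up to the base before the start, with matches in capitals.
Elovl6 (chr3:129532136-129532385, plus strand): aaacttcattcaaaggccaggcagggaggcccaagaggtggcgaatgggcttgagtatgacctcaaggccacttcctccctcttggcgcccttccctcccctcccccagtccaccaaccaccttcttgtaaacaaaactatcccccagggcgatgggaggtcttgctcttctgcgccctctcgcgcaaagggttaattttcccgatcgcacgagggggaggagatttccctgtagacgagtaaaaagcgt
Elovl5 (chr9:77917115-77917364, plus strand): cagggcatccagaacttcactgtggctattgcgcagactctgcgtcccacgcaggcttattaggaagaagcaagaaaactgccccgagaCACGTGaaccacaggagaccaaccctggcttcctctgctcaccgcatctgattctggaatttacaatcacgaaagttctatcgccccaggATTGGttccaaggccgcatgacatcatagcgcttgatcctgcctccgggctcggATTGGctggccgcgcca
Fasn (chr11:120824548-120824797, minus strand): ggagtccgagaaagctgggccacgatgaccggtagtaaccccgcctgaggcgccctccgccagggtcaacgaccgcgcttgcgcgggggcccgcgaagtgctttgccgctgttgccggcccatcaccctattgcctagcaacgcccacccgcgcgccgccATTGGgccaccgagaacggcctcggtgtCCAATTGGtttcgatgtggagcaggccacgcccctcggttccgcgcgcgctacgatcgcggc
In Elovl5 the E-box began 161 bases before the start, and the CCAAT matches, both on the reverse strand, began 71 and 17 bases before it. In Fasn the CCAAT matches began 90, 62 and 59 bases before the start, and the last 2 overlap, since CCAAT and its reverse complement share letters there. Elovl6, with no match, was 2.79-fold lower, and Fasn, with 3 matches of which 2 overlap, was 1.43-fold lower at a dim signal. Whether matches and differences are related was not tested, and Scd1, Scd2 and Fads1 had no promoter entry.

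Of 19 listed partner and sister enzymes 15 were measured, 0 were past 2-fold in either direction and the median difference was -0.10. The elongation cycle also needs a ketoreductase, a dehydratase and an enoyl reductase. The dehydratase genes Hacd3 and Hacd1 had differences of -0.63 and -0.57, while Hacd2 had -0.15, the ketoreductase gene Hsd17b12 -0.15 and the enoyl reductase gene Tecr -0.16. Acacb, the mitochondrial carboxylase form that makes malonyl-CoA as a brake on fatty acid oxidation, gave 27.9 ± 3.65 with PBS and 26.4 ± 3.68 with miR-122. Its difference of 0.20 was smaller than its error of 0.28 and was negative with loess, with quantile normalization and in the authors' values. Olah, which encodes a thioesterase that releases chains from Fasn, had a difference of 0.49 at a dim level of -4.86 on the PBS array.

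Regulators of the pathway went both ways. Of 20 measured regulator genes 1 was at least 2-fold higher and 0 were 2-fold lower, with a median of 0.07 that turned to -0.11 with median scaling. Srebf1, which encodes SREBP-1, had levels of -2.59 with PBS and -2.68 with miR-122, a difference of -0.09, or 0.03 with normexp. Srebf2, the partner gene for sterol synthesis, differed by 0.13 with its brightest probe, or -0.04 with median scaling, and by -0.12 with another, so its direction was not settled. Scap, the escort that carries SREBP to the Golgi, differed by -0.36, and Insig1, which holds that escort in the endoplasmic reticulum and is itself an SREBP target, by -0.71, or 1.64-fold lower. Nr1h3, which encodes LXR alpha, differed by 0.29. Mlxipl, which encodes the glucose-responsive activator ChREBP, differed by 0.04 with its brightest probe and by 1.47 with another, and the first value was negative with median scaling, with quantile normalization and in the authors' values. Usf2, an E-box factor, was 2.03-fold higher, but 1.43-fold as the mean over its probes and under 2-fold with normexp and with the other scalings by median and by quantile, Usf1 had a fold of 1.67, which was 1.31 with normexp, and Rxra differed by 0.47 with its brightest probe but by 0.06 as the mean over its probes.

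Genes that supply acetyl-CoA and NADPH had a median of -0.23, with 11 of 15 negative and 0 past 2-fold. Acss2, which makes acetyl-CoA from acetate, and Idh1, a cytosolic source of NADPH, both differed by -0.54 (Acss2 by -0.34 as the mean over its probes), Pdk1, an inhibitor of pyruvate dehydrogenase, by -0.59 and Aco1, the cytosolic aconitase, by 0.60. Among 14 acyl-CoA synthetase and binding genes, with a median of 0.05 that changed sign between scalings and 0 past 2-fold, Acsl1 and Acsl3, which activate long chains, differed by -0.75 and -0.73, and Acsl1 by -0.50 as the mean over its probes. Acot9, a mitochondrial thioesterase gene, differed by 0.71. Acsl6, at a dim level of -4.87 on the PBS array, differed by 0.54, or by 0.25 with loess and 0.34 with normexp.

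Genes of glycerolipid and phospholipid metabolism, mostly of acylation, had a median of -0.15, with 15 of 21 negative. Plin2, the lipid droplet coat gene, had levels of 4.60 with PBS and 5.75 with miR-122 and was 2.22-fold higher, the only gene of this list past 2-fold, though under 2-fold when scaled by median or quantile and in the authors' values. Mboat1, a lysophospholipid acyltransferase gene, differed by -0.93, and Lpin1, a phosphatidate phosphatase gene, by -0.85, or -0.22 with normexp. Gpat3, a glycerol-phosphate acyltransferase gene, differed by 0.57. Genes of fatty acid oxidation, the opposing pathway, had a median of -0.07 over 19 measured of 22 listed, with 12 negative, 7 positive and 0 past 2-fold. Acadm, a medium-chain dehydrogenase gene, differed by -0.64, the peroxisomal thiolase gene Acaa1a by 0.62, the carnitine carrier gene Slc25a20 by 0.59 and Cpt1b by 0.56, or 0.28 as the mean over its probes. The separate mitochondrial route of fatty acid synthesis had a median of -0.10 over 7 genes, between -0.17 for its condensing enzyme gene Oxsm and 0.14 for Cbr4; Acsf3 and Ndufab1 lay between them at -0.12 and 0.12.

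**Figure D4:**
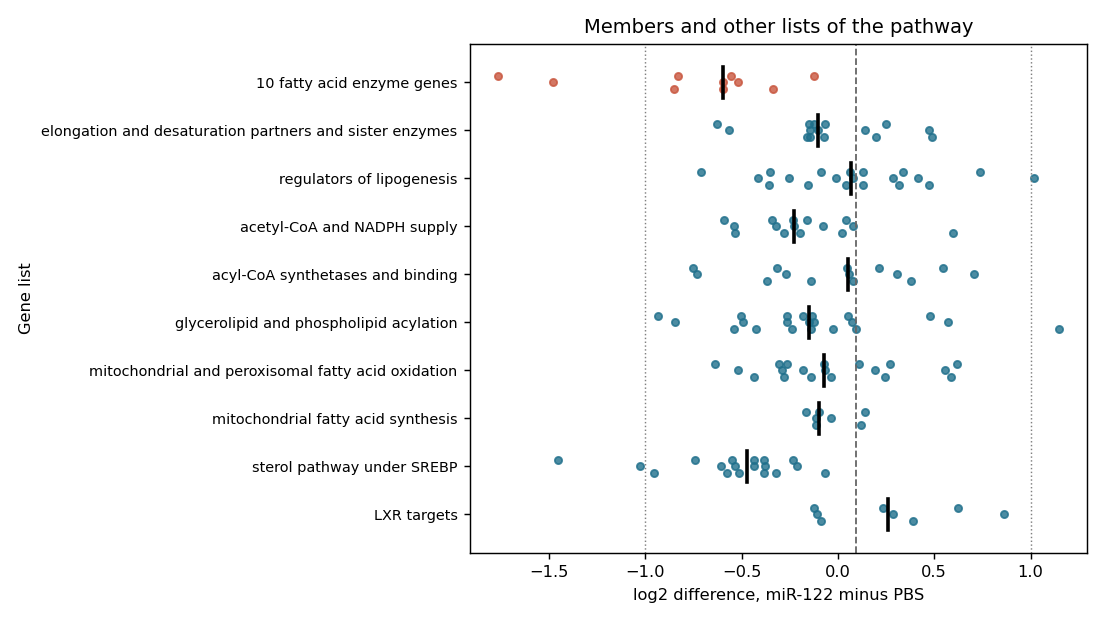
Difference of each measured gene, miR-122 minus PBS on the log2 scale, for the 10 enzyme genes (red) and 9 other lists of the pathway (blue); black bars are list medians, the dashed line is the median of all genes at 0.09 and dotted lines mark 2-fold. The enzyme genes and the sterol list are the lists with every measured gene below 0.

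Sterol synthesis genes, which SREBP also controls, had a median of -0.47, with 18 of 18 measured genes negative. Cyp51 was 2.74-fold lower, and Mvd and Lss were 1.94-fold and 1.67-fold lower. LXR targets had a median of 0.26 over 8 of 9 genes, with 5 positive and 0 past 2-fold. Mylip and Abcg1, a ubiquitin ligase gene for lipoprotein receptors and a cholesterol exporter gene, had folds of 1.82 and 1.54, which were 1.37 and 1.38 with normexp, and the phospholipid transfer gene Pltp differed by 0.39. Srebf1, Lpcat3 and Apoe were the 3 negative LXR targets, at -0.09, -0.12 and -0.11. The differences of the reference genes were 0.21 for Actb, 0.18 for Gapdh and -0.25 for Hprt, and those of Actb and Gapdh were at or below 0 under some other scalings.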

How the data were processed

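Per the labels' protocols, total RNA of 2 cultures carried the Cy3 label, with 1 Agilent array for each. Per the file headers, Agilent Feature Extraction 11.0.1.1 made the deposited intensities: a background-subtracted, detrended signal per spot, its error, and the medians of spot and local background. The authors also deposited processed log2 values, and each column has a median of 5.16. How these were normalized is not stated, but their differences nearly equalled those of the quantile normalization used here. Both gave 528 genes at least 2-fold higher and 354 lower.

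Control spots, and 145 and 196 spots flagged as outliers on the PBS and miR-122 arrays, were left out. Log2 signals were averaged per probe and the 75th percentile of each array was subtracted. Accessions were named through RefSeq GRCm38.p6, which matched 27232 of 39427 probes. Each gene was read from its brightest probe, among probes called well above background on either array, and counted where both arrays had that call. The error of a difference combines the 2 spot errors. Named genes were all members, the listed sister and regulator genes, up to 4 genes of each other list with the largest differences, and reference genes; 1 gene that this rule takes is not reported here. Members and lists were chosen with earlier results of these data known. Alternatives were median, quantile and loess (span 0.3) scaling, normexp (offset 50, on median intensities), the authors' values, no filter on dim probes, the mean over probes, outlier spots kept, and other thresholds. R 4.3.3, limma 3.58.1, Python 3.11.15, numpy 2.4.6 and pandas 2.3.3 were used, and the counts were checked on simulated data.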

Additional observations from a re-analysis of the deposited data

How the results depend on the processing

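The median of the 10 enzyme genes lay between -0.77 and -0.40 under the 8 alternatives, and 9 or 10 members were negative. Of 80 values for single members, 77 kept their sign and moved by less than 0.30, the standard deviation between probes of a gene. With normexp Fasn turned to 0.031, Scd1 moved to -0.31 and Fads2 to -0.21, and the cause was not tested. Many of the 80 values could hardly move. Dropping the filter on dim probes left every member unchanged, and keeping outlier spots barely changed any. Median scaling shifted all genes equally, and the authors' values nearly repeated the quantile ones. The 80 values are therefore not 80 separate checks. At least 2-fold lower were 2 members, 4 with median scaling, 6 at 1.5-fold and 0 at 4-fold. Over all genes, 687 were at least 2-fold higher and 268 lower; median scaling gave 471 and 456, normexp 388 and 143, no filter on dim probes 1357 and 451, a threshold of 1.5-fold 1811 and 900, and a threshold of 4-fold 17 lower; the count of higher genes at 4-fold is not reported here. The median of the regulators turned to -0.11 with median scaling, and that of acyl-CoA synthetase and binding genes to -0.13 with median scaling and to -0.013 both with quantile normalization and in the authors' values. The count of negative members was an alternative added after seeing the data. No paired analysis was possible because each group holds 1 array, so no replicate can be left out either.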

Other observations

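Probes of 1 gene disagreed in several genes near the pathway, all named after their values were seen. The brightest Mlxipl probe gave levels of 2.24 with PBS and 2.28 with miR-122, while another gave -1.25 and 0.22, a difference of 1.47. The Cyb5b probes, for a cytochrome b5 of the outer mitochondrial membrane, differed by -0.13 and -0.71. A second Hacd4 probe, not well above background with PBS, gave 8.55 ± 2.66 with PBS and 18.3 ± 3.48 with miR-122. This was a difference of 1.38 with an error of 0.53, or 0.46 with normexp, while the first Hacd4 probe differed by 0.25. Cyb5a, whose product donates electrons to desaturases, differed by -0.07, and Cyb5r3, the reductase gene that feeds it, by -0.10 with its bright probe and by 0.22 with a dim one.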
